A study of Mus musculus with 8 samples.

Results

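Pkm and Khk are a pair of sugar metabolism genes that each carry alternative exons of equal length, and both were listed after loss of the splicing factor SRSF3 in mouse hepatocytes. They were chosen by gene name, with their measured values already known, as 2 of the 354 genes in the authors' table of local splicing variations. Each gene had 1 of the 862 variations of that table, and neither gene was among the 498 events of the authors' table of junction usage. The values below that chose them are therefore a description, with no test.

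Hepatocytes, the main cells of the liver, came from C57BL/6J mice whose Srsf3 alleles were floxed, and were kept in culture. They were exposed for 48 h to an adeno-associated virus (AAV) that carried either Cre recombinase, which deletes the floxed part of Srsf3 (the AAV-Cre group, 4 libraries, genotype Srsf3-KO), or green fluorescent protein (the AAV-GFP group, 4 libraries, genotype Srsf3-flox). Both groups thus carried the floxed alleles and a virus, and the labels name neither the promoter that drives Cre nor the number of animals. The tables hold 1 value per group, so neither the depth behind a value nor its spread over libraries is known, and no SD, interval or test of a difference can be given. They hold no expression levels, so the labelled cell type was not checked against marker genes. The authors' group values for Srsf3 itself checked the labels: usage of the junction from exon 1 to exon 2 was 0.998 with AAV-GFP and 0.157 with AAV-Cre. Below, a pair of group values joined by "to" always gives AAV-GFP first and AAV-Cre second.

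Pkm encodes the muscle-type pyruvate kinase, which catalyses the last step of glycolysis. Its exons 9 and 10 are mutually exclusive: exon 9 gives the PKM1 (M1) enzyme and exon 10 the PKM2 (M2) enzyme. The liver's own pyruvate kinase comes from another gene, Pklr, and Pkm is better known from muscle, brain, immune cells and growing cells. Khk encodes ketohexokinase, which phosphorylates fructose in the first step of its breakdown. Exon 3C gives KHK-C, the high-affinity enzyme of liver, kidney and gut, and exon 3A gives KHK-A, a widely expressed form with low affinity for fructose.

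The alternative exons are shown first, since every junction below starts or ends at them or skips them. They were read from GENCODE M21 transcripts on GRCm38 (mm10), the build named in the submitters' processing notes, and all are coding exons on the plus strand. Exon 9 of Pkm lies at chr9:59675029-59675195 and exon 10 at chr9:59675568-59675734. Exon 3A of Khk lies at chr5:30926688-30926822 and exon 3C at chr5:30927022-30927156. Capitals mark sequences known from work on SRSF3 binding, searched on the RNA strand only: the tetramer CATC, and the 8 pentamers with C at bases 2 and 5 and with A or T at the other bases, which can overlap one another and CATC.
Pkm exon 9 (M1): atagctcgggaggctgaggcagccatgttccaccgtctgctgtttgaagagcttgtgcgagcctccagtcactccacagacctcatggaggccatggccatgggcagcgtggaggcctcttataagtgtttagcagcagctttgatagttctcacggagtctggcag
Pkm exon 10 (M2): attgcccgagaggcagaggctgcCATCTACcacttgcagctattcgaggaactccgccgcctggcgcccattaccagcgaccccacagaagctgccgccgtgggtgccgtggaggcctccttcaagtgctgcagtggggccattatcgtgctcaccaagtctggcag
Khk exon 3A: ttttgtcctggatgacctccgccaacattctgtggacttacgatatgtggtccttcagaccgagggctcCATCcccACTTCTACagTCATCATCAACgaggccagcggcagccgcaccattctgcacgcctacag
Khk exon 3C: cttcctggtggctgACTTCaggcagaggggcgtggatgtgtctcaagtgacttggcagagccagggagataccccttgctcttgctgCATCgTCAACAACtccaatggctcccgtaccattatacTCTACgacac

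The pair in each gene is equal in length and partly identical in sequence. Exons 9 and 10 of Pkm, of 167 nt each, were identical at 103 of 167 bases (61.7%) when set side by side without gaps. Exons 3A and 3C of Khk, of 135 nt each, were identical at 73 of 135 bases (54.1%). Exon 9 of Pkm held no match to the pentamers or to CATC, whereas exon 10 held 1 of each. Among 900 annotated exons of 167 nt in protein-coding transcripts, 75.1% held a pentamer and 55.8% held CATC. Exon 3A of Khk held 5 pentamer matches and 3 CATC matches, and exon 3C held 4 and 1. Among 1601 such exons of 135 nt, 65.6% held a pentamer, with a median of 1 match and at most 9, and 48.3% held CATC. These matches describe the letters only, and binding was not measured.

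The listed Pkm variation was not a direct readout of the M1 to M2 choice. It started at exon 9 and followed where RNA that already contained exon 9 went next, so exon 10 enters it only as a partner of exon 9. PSI, percent spliced in, is here the share of each part among all parts of the variation, on a scale of 0 to 1. No variation that leaves exon 8 or enters exon 11 was listed for Pkm. Molecules that pass from exon 8 straight to exon 10, the usual M2 path, are therefore not counted, and the ratio of M1 to M2 was not measured. The name isoform switch is thus not borne out by a measurement for Pkm.

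After Cre, RNA that contained exon 9 was joined mostly to exon 11. The junction from exon 9 to exon 11 (chr9:59675195-59678044), which makes the M1 message, went from a group PSI of 0.279 to 0.850, a difference of 0.571 and a ratio of 3.05. It stood below the intron part in AAV-GFP and was the largest part in AAV-Cre. The other 2 parts were both lower in AAV-Cre.

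The largest part in AAV-GFP was the intron between exons 9 and 10. Its group PSI went from 0.573 to 0.140, a difference of -0.433, or 4.09 times lower. The spliced junctions of exon 9 together made up 0.425 of the variation in AAV-GFP and 0.860 in AAV-Cre. The whole intron is 372 nt long. The part counted by the authors was its last 85 nt (chr9:59675483-59675567), because an annotated retained-intron transcript, Pkm-203, extends exon 9 by 287 nt to position 59675482. The table does not separate reads of RNA spliced into exon 9 from reads of unspliced RNA. In such bulk RNA, a different mix of cells that carry the message and a change within each cell cannot be told apart.

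The start of this intron is shown because it holds the 5' splice site from which both spliced junctions leave. The 287 nt that Pkm-203 covers (chr9:59675196-59675482, mm10, plus strand) are printed with the first 6 bases in capitals.
Pkm intron 9, first part: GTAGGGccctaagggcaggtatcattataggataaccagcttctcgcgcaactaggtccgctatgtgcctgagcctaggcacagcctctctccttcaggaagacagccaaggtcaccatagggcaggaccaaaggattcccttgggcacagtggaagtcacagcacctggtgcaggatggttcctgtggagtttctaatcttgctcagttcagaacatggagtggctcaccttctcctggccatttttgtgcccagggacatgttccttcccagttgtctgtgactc

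An RNA that kept this intron would meet a stop codon in the frame of exon 9 at base 2 of the intron, counted from 1 at its start, within the capitals. The open frame would then hold 436 residues, against 531 for each of the M1 and M2 messages. This is read from the sequence alone, as protein was not measured.

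The junction that joins both alternative exons stood near 0 with AAV-Cre. This junction, from exon 9 to exon 10 (chr9:59675195-59675568), went from 0.145 to 0.009, a difference of -0.136, while the authors' deposited expected change was -0.089. No GENCODE M21 transcript of Pkm contains this junction or both exons. The exons total 334 nt, which is not a multiple of 3, so a message with both shifts its frame. It would stop in exon 11 after 508 residues, 129 bases before its last junction, a position that often sends a message to nonsense-mediated decay. Among the 2 spliced junctions alone, exon 9 to exon 11 took 0.658 in AAV-GFP and 0.990 in AAV-Cre.

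The bases across each Pkm join show the exon that follows exon 9, with 20 bases from each side and the downstream exon in capitals.
Exon 9 to exon 11: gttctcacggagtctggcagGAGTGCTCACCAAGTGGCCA
Exon 9 to exon 10: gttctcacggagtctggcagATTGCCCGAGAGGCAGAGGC

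The Khk variation collected the junctions that enter exon 4 (chr5:30928443-30928515), and here each alternative exon had a junction of its own. Exon 3C, the exon of the liver enzyme KHK-C, already led in AAV-GFP and led by more in AAV-Cre. Its junction to exon 4 (chr5:30927156-30928443) went from 0.644 to 0.890, a difference of 0.246 and a ratio of 1.38. The other 3 junctions had lower group PSI values in AAV-Cre.

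Exon 3A, the exon of KHK-A, was joined to exon 4 (chr5:30926822-30928443) at a group PSI that went from 0.141 to 0.032, a difference of -0.109, or 4.41 times lower. The authors' deposited expected change for it was smaller, at -0.044. Between the exons alone, 3C took 0.820 in AAV-GFP and 0.965 in AAV-Cre. The ratio of 3C to 3A was thus 4.57 in AAV-GFP and 27.8 in AAV-Cre. These ratios rest on the group values, whose difference for 3A is larger than the deposited change. Both measures have 3C higher and 3A lower in AAV-Cre, with no measure of their error. Exon 3C led in both groups, so a switch of the leading exon is not borne out for Khk. An annotated transcript, Khk-201, holds both exons, and a junction that leaves 3C does not tell whether 3A came before it.

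Skipping of exon 3 was lower in AAV-Cre by about as much as use of exon 3A. The junction from exon 2 to exon 4 (chr5:30924855-30928443), which leaves out both alternative exons, went from 0.202 to 0.075, a difference of -0.127, or 2.69 times lower, while the authors' deposited expected change was -0.057. In AAV-GFP it stood above the junction of exon 3A, and it did so in AAV-Cre too. The junction from exon 1 to exon 4 (chr5:30922007-30928443), which is not annotated, had 0.013 and 0.003, with a deposited change of 0.000. Messages that entered exon 4 from either form of exon 3 thus made up 0.785 in AAV-GFP and 0.922 in AAV-Cre.

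Every listed Khk path keeps the reading frame, in contrast to the doubly included Pkm path. Exons 2, 3A and 3C are each a multiple of 3 in length. The open frame holds 298 residues with 3A or with 3C, 343 with both, 253 when exon 3 is skipped and 214 when exon 1 joins exon 4. In the joins below the upstream 20 bases differ and exon 4, in capitals, is shared.
Exon 3C to exon 4: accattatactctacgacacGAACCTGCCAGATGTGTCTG
Exon 3A to exon 4: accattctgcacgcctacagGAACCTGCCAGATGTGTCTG
Exon 2 to exon 4: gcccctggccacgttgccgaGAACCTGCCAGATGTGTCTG
Exon 1 to exon 4: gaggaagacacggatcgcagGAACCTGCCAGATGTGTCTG

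**Figure D1:**
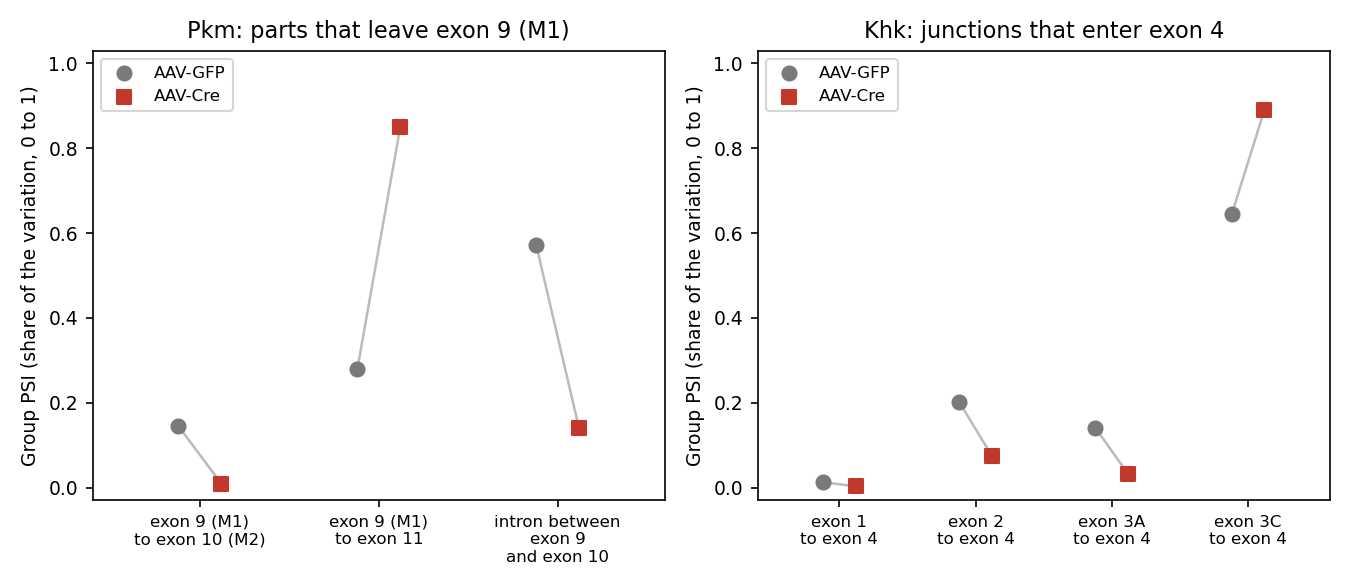
Group PSI (y axis, share of the variation from 0 to 1) of each Pkm and Khk part (x axis), with grey circles for AAV-GFP and red squares for AAV-Cre, 1 authors' value per group and no error. In each gene 1 junction is higher in AAV-Cre, exon 9 to exon 11 in Pkm (0.279 to 0.850) and exon 3C to exon 4 in Khk (0.644 to 0.890), and all others are lower.

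The plot of PSI by junction shows that within each variation 1 junction was higher in AAV-Cre and every other part was lower by group PSI. The shares of a variation add to about 1, so a large rise in 1 part comes with lower values in others. G6pdx had the same pattern (0.636, with -0.007 and -0.628), so it is not particular to these genes. In Pkm and Khk the higher junction belongs to an annotated protein-coding transcript and was the largest part in AAV-Cre, at 0.850 and 0.890. The Khk junctions from exon 3A and exon 2 to exon 4, which were lower, are annotated too. The genes differed in their start, since that junction was the largest part of the Khk variation in AAV-GFP but not of the Pkm variation. They also differed in the parts that were lower, mostly an intron part in Pkm and, in Khk, other spliced junctions.

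**Figure D2:**
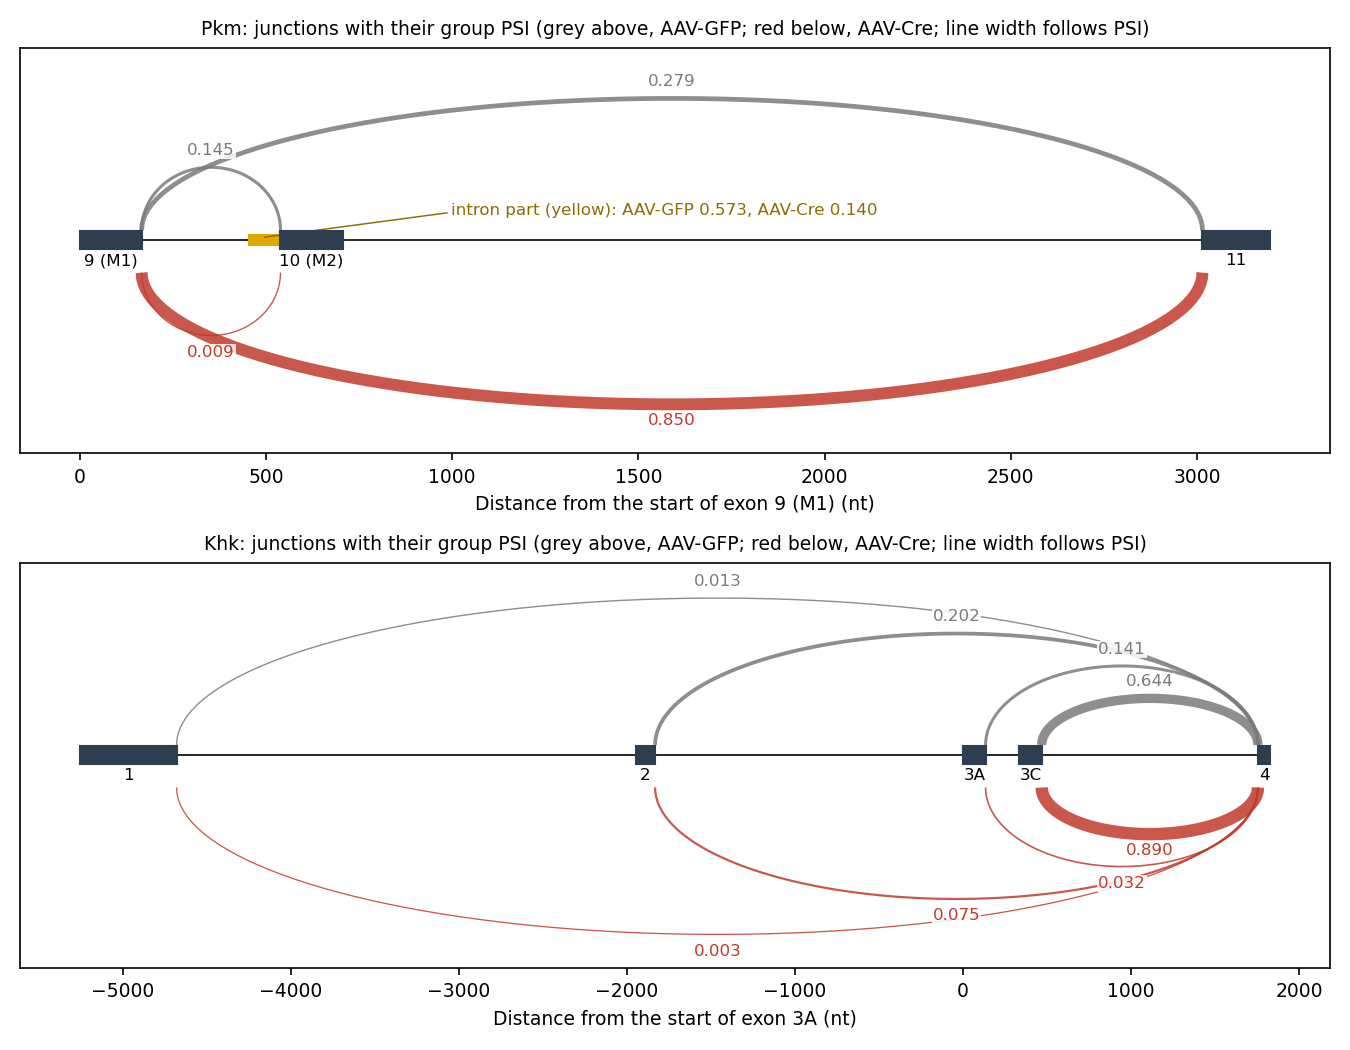
Exons (dark boxes) and junctions (arcs, line width following PSI) of Pkm and Khk along the distance in nt from the start of exon 9 or of exon 3A (x axis), with AAV-GFP in grey above and AAV-Cre in red below. The long Pkm arc to exon 11 thickens from 0.279 to 0.850 while the arc to exon 10 thins from 0.145 to 0.009, and the yellow box marks the 85 nt intron part; in Khk the inner arc from 3C thickens as the arcs from 3A and exon 2 thin.

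The map of the junctions shows the spacing behind these choices. In Pkm, exons 9 and 10 are separated by 372 nt, and exon 10 lies 2309 nt before exon 11. In Khk, exons 3A and 3C are separated by 199 nt, and 3C lies 1286 nt before exon 4. In both genes the partner exons are thus close to each other and far from the next shared exon.

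The Pkm intron part was lower in AAV-Cre, while more intron parts of the table were higher than lower. Of 214 variations with an intron part, 34 (15.9%) had that part lower in AAV-Cre by at least 0.2, 93 had it higher by that much and 87 changed by less. Outside 3 windows of 100 kb with 8 or more variations each, 9 of 137 (6.57%) were lower, 71 were higher and 57 changed by less, and Pkm was among the 9. By size it was the fourth of these 9, after Cdv3 (0.638 to 0.001), Srsf6 (0.793 to 0.158) and Sat1 (0.504 to 0.004). An intron can enter once from each side, and Pkm was chosen with its value known, so its place is a description.

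**Figure D3:**
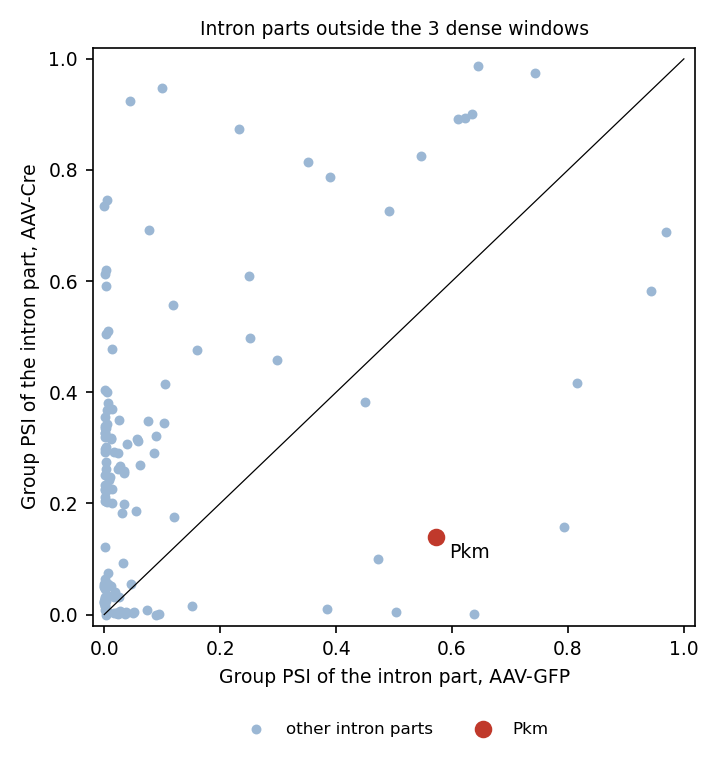
Group PSI of each intron part in AAV-GFP (x axis) and AAV-Cre (y axis) for the 137 variations outside the 3 dense windows, with Pkm in red and a line of equal values. Pkm, at 0.573 and 0.140, is 1 of 9 points that lie at least 0.2 below the line, against 71 that lie as far above it.

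By the size of its largest change Pkm stood high in the table and Khk low. A junction that changed by at least 0.2 was present in 817 of 862 variations (94.8%), so the presence of both genes among them is not a result about these genes. Pkm, at 0.571, took place 35 of 354 genes, and Khk, at 0.246, place 287. The median over all 354 genes was 0.312.

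**Figure D4:**
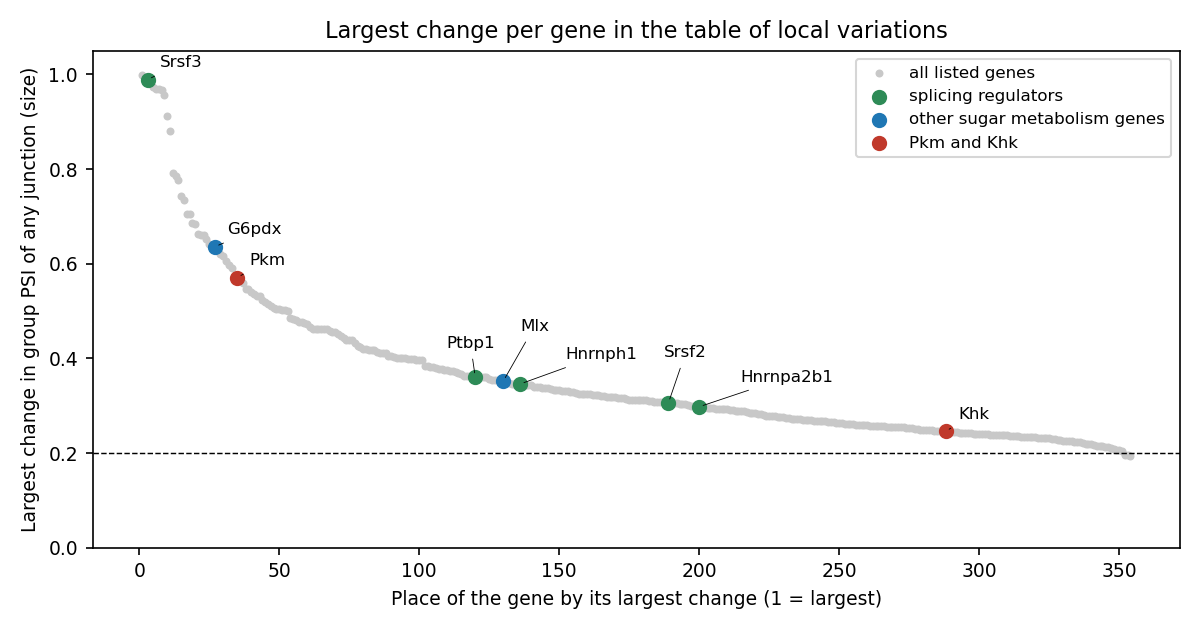
Largest change in group PSI of any junction (y axis, size only) for each of the 354 listed genes, ordered from the largest (x axis), with Pkm and Khk in red, other sugar metabolism genes in blue, splicing regulators in green and the 0.2 threshold dashed. Pkm (0.571) lies in the steep part of the curve and Khk (0.246) near its end.

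A list of 70 sugar metabolism genes covered glycolysis, gluconeogenesis, fructose, galactose and pyruvate metabolism and the pentose phosphate path. It also held sugar and lactate transporters and transcription factors such as Mlx. Of these 70 genes, 4 were listed as local variations and all 4 passed 0.2: Pkm, Khk, Mlx and G6pdx. Of all 354 listed genes 351 (99.2%) passed, so this is not particular to the list. The largest changes of the 4 genes ran from 0.246 in Khk to 0.636 in G6pdx. Their median was 0.461, beside 0.312 over all listed genes. This median includes Pkm and Khk, which were chosen with their values known, so it is a description and not a result about sugar metabolism genes. Mlx encodes the partner of the glucose-sensing factor ChREBP. Inclusion of its exon 3 of 90 nt (chr11:101088236-101088325) went from 0.929 to 0.577. By junction usage, where 57 of 498 events (11.4%) of the authors' deposited table passed a q-value of 0.05 or less with a change of at least 0.1, Mlx was the only gene of this list to appear, with a change of -0.509 (q = 0.00444). Nothing in the labels says that libraries came from separate cultures or animals, so these q-values may measure technical spread. Of the 498 events, 107 held a change that was not finite, and only finite changes entered the count of 57. G6pdx encodes the first enzyme of the pentose phosphate path, and its most changed junction (chrX:74415153-74428052) went from 0.180 to 0.816. The other 66 genes, Pklr among them, appeared in neither table, which does not show that they were unchanged.

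Some factors that earlier work ties to these exons were also listed. Of 16 such genes, SRSF3 included, 5 were listed as local variations and all 5 passed 0.2, again beside 99.2% of all listed genes. Their median largest change was 0.346, and 0.326 without the deleted gene Srsf3 itself, beside 0.312 over all listed genes. Ptbp1, known to repress exon 9 of Pkm, had an exon of 78 nt (chr10:79860117-79860194) whose junction to the next exon went from 0.463 to 0.102. By junction usage this exon did not pass (change of -0.136 and q = 0.311, from the authors' deposited table). Hnrnpa2b1, another repressor of exon 9, had a junction at an exon of 120 nt (chr6:51464428-51464547) that went from 0.074 to 0.365. Hnrnph1, tied to the Khk choice, had a junction that skips an exon of 139 nt (chr11:50381459-50381597), which went from 0.001 to 0.310. It also passed by junction usage (change of -0.230 and q = 0.0259, from the authors' deposited table). Srsf2 passed by junction usage as well, with -0.149 as its greatest change in a composite event (q = 8.57e-05, from the authors' deposited table). Hnrnph2 was listed only by junction usage and did not pass (change of 0.396 and q = 0.211, from the authors' deposited table). The other 10 genes of the 16 appeared in neither table, which does not show that they were unchanged. Whether any of the listed factors moved Pkm or Khk was not tested.

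No event of Pkm or Khk was among the 4 mutually exclusive exon events listed by junction usage at p below 0.05 in the authors' deposited table. Those 4 were in H2afz (change of -0.051), Dnm2 (-0.298), Actn1 (-0.190) and Slc39a14 (0.347). Their q-values ran from 0.125 to 0.589 in the authors' deposited table, and none passed. The largest local-variation change was 0.568 in Dnm2, 0.537 in Slc39a14 and 0.223 in Actn1, not matched here to the same exons. In the table of local variations 3 genes had opposite changes of at least 0.2 in the same pair of exons at both sides of the pair. Of these, Gm10720 and Gm11168 lay in a dense window of chromosome 9. The third, H2afy, which encodes the histone variant macroH2A1, changed by -0.294 and 0.308 at one side and by -0.203 and 0.440 at the other, for exons at chr13:56088252-56088342 and chr13:56089758-56090058. Pkm and Khk could not meet this rule, as each had a variation at 1 side only.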

How the data were processed

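Stranded mRNA libraries were read from both ends, per the labels' protocols. FastQC, STAR and the build mm10 are named in the submitters' processing notes, without their settings. The deposited table of local variations has the VOILA layout of MAJIQ, per the file headers, and gives the authors' group PSI as a fraction. Its deposited change runs the other way, and with the sign reversed it correlated at 0.996 with the difference of group PSI over 6866 junctions. The difference of group PSI, AAV-Cre minus AAV-GFP, was used here. The column headed as a probability that a change reaches 0.2 was not used. It was 0.95 or more for each of 4155 junctions with a deposited change under 0.02 in size. It was at most 0.000795 for 32 that were higher in AAV-Cre by 0.8 or more, while those lower by as much were not checked. For Pkm it was 0.599 at exon 9 to exon 11, and 1 to 3 decimals at the other Pkm and Khk parts. The other deposited table comes from JUM and holds p-values, q-values and changes in PSI at p below 0.05, per the file headers.

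Junctions were assigned to exons by matching coordinates to GENCODE M21. Exon 3A of Khk was taken as exon 3 of the annotated transcript Khk-205, and exon 3C as exon 3 of Khk-204. The encoded residues were not compared with KHK-A or KHK-C. The design foresaw a Pkm variation at exon 8; the listed one, at exon 9, was used instead. Members, gene lists and thresholds (0.2 for local variations; a q-value of 0.05 with a change of 0.1 for junction usage) were chosen with earlier results of these data known. Named genes were Pkm, Khk, Srsf3, every gene of both lists past a threshold, and up to 5 genes with an exchange at both sides. Cdv3, Srsf6 and Sat1, the mutually exclusive events, Hnrnph2 and Pklr were named after their values were seen. Counting and exchange rules were tested on simulated data. Computation used Python 3.11.15, pandas 2.3.3 and numpy 2.4.6.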

Additional observations from a re-analysis of the deposited data

How the results depend on the processing

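For Pkm, the change of the junction from exon 9 to exon 11 was 0.571 as the difference of group PSI, 0.583 as the deposited expected change and 0.332 as a share of the 2 spliced junctions. For Khk, that of exon 3C was 0.246, 0.247 and, as a share of 3A and 3C only, 0.145. The deposited change had no direction for exon 1 to exon 4 of Khk (0.000 against -0.010). It kept the direction of the other Pkm and Khk parts but was smaller for exon 9 to exon 10 of Pkm (-0.089 against -0.136), exon 3A (-0.044 against -0.109) and exon 2 to exon 4 of Khk (-0.057 against -0.127), and the cause was not tested. Variations with a change of at least 0.2 were 817 of 862, against 517 at 0.3 (Khk was then not called). The 3 dense windows held 423 variations (49.1%), and without them 436 of 439 (99.3%) passed. Junction-usage events called were 57, against 321 at p below 0.05. Sugar metabolism genes called were 3 to 4 and regulators 4 to 6 over the thresholds tried, 1 of them added after seeing the data, as was leaving the dense windows out of the intron parts (34 against 9). Reading Pkm or Khk from the other side of the exon pair was not run, as no such variation was listed. No replicate could be left out. No paired analysis was possible because both tables hold 1 value per group or comparison. Depth is unknown.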

Other observations

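The deposited expected changes of a variation should add to about 0, since its shares add to 1. For Khk they added to 0.145, and for Pkm to 0.054, after turning the sign to AAV-Cre minus AAV-GFP. The group PSI values of both genes added to between 0.997 and 1. A sum beyond 0.1 in size was found in 91 of 862 variations (10.6%).

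The exon 10 that the Pkm variation lists runs to position 59676042 of chromosome 9, 308 nt past the annotated end of exon 10 on mm10. No junction that leaves this longer exon was listed.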
